A study of Mus musculus with 35 samples.

Results

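Imprinted genes are transcribed mainly from 1 of the 2 parental copies. The 40 genes described here are listed imprinted genes, chosen by name and not by their values, out of 53465 genes in the table of bulk RNA-seq. Of these, 38 passed a minimum mean of 10 normalized counts, which 19765 genes passed in all, and 39 had at least 1 transcript in the single cells. They were followed through microglia, endothelial cells, mural cells and neural cells of the E14.5 mouse brain. EMBRACE sorted these populations by FACS after dissociation with Liberase and DNase I. Neural cells were negative for PECAM1, CD102, PDGFRβ, CD45 and CD41, mural cells were high for PDGFRβ, endothelial cells were positive for PECAM1 and CD102, and microglia were taken by CD45 and CD11b. The bulk RNA-seq comprised 12 libraries, 1 of each population from each of 3 brains, here called the first, the second and the third by their number in the labels, that the study describes as wild type. RNA of neural cells was taken with a Qiagen mini kit and made into TruSeq libraries. RNA of the other 3 populations was taken with a miRNeasy Micro kit and amplified by SMART-Seq v4, so that library kit and neural population cannot be told apart in the bulk data. The scRNA-seq used 1 chemistry, mCEL-Seq2, for all cells: 11 libraries on wild-type plates 1 to 3 with a sort gate for each well, and 12 libraries labelled Mof Knockout on plates 4 to 6 with no gate. *Mof* is the gene *Kat8*, which encodes a histone H4 acetyltransferase, and neither the labels nor the text used here give the allele, the Cre driver or the strain.

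Imprints are marks of DNA methylation set in the egg or the sperm, and zinc finger proteins such as ZFP57 keep them in the embryo. Imprinted genes lie in clusters around shared control regions, in which a long noncoding RNA and several protein-coding genes are often read from opposite parental copies. Many act in growth, in placenta and in brain, where paternally expressed genes such as *Peg3*, *Ndn* and *Magel2* are known from neurons. RNA totals do not tell the parental copies apart, so the values below say how much of each RNA was present and nothing about which copy was read. By textbook assignment the list holds 23 paternally expressed genes and 17 that are maternally expressed in some tissue, which need not be brain.

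Several of the noncoding members carry microRNAs, which are shown because the levels of these host RNAs separated the populations. The microRNAs themselves were not measured. On the same strand as a member, RefSeq annotation of GRCm38 placed 14 hairpins within *Mirg*, 3 within *Rian*, and 1 each within *H19*, *Igf2*, *Mest* and *Usp29*. Within *Meg3* the annotation placed mature sequences of miR-1906 and of miR-770. The mature sequences below are written 5′ to 3′ with the seed, bases 2 to 8, in capitals.
miR-675-5p in *H19*: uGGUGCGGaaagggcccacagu
miR-483-3p in *Igf2*: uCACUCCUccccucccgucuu
miR-770-3p in *Meg3*: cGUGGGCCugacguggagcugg
miR-370-3p in *Rian*: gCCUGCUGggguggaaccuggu
miR-134-5p in *Mirg*: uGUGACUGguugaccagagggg
miR-410-3p in *Mirg*: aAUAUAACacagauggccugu
miR-453 in *Mirg*: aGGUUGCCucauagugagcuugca
miR-496a-5p in *Mirg*: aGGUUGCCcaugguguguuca
miR-335-5p in *Mest*: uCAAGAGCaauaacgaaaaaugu
Among all mature microRNAs placed within members, miR-453 and miR-496a-5p were the only pair with the same seed.

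ZFP57 binds the hexamer TGCCGC. The hexamer was searched on both strands in the 250 bases before each RefSeq start (GRCm38.p6), where matches to TGCCGC and to its reverse complement GCGGCA both count. Of the members, 33 had such a window, and 6 of them (*Mcts2*, *Meg3*, *Mest*, *Nap1l5*, *Plagl1* and *Zim1*) held the hexamer, or 18.2%, against 9.84% of all 27025 genes with a window. No entry was matched for *Cdkn1c*, *H19*, *Impact*, *Peg10*, *Peg13*, *Sgce* and *Trappc9*. The hexamer itself holds a CpG dinucleotide, and member windows held a median of 10 of these against 6 over all windows. The part of this in the shares was not tested. A match is a stretch of letters and not a shown binding site. The windows of *Meg3*, whose RNA was highest in mural cells, *Mest*, highest in endothelial cells, *Nap1l5*, which rose in neuron-like cells, and *Plagl1*, which fell there, are given 5′ to 3′ on the gene's strand with the hexamer in capitals.
*Meg3*, chr12:109540746-109540995, plus strand: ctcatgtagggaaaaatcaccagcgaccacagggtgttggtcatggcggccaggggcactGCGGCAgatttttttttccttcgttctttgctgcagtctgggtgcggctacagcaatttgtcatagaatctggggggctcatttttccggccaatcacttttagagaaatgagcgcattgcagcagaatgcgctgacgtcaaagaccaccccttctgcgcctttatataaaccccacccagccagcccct
*Mest*, chr6:30737800-30738049, plus strand: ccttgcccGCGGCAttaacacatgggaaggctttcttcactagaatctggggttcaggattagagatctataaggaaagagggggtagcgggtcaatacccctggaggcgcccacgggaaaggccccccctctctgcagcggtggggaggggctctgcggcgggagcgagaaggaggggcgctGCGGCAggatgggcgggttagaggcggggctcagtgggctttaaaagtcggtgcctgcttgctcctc
*Nap1l5*, chr6:58907127-58907376, minus strand: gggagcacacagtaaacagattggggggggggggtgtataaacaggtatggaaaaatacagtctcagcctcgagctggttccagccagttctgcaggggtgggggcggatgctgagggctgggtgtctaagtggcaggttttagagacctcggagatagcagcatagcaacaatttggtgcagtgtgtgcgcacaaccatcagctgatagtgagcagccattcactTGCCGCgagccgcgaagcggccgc
*Plagl1*, chr10:13090582-13090831, plus strand: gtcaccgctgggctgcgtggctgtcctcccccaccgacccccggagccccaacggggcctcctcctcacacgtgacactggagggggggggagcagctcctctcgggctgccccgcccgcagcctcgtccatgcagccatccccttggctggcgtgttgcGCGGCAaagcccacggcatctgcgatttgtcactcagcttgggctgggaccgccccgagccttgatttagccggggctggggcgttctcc
*Peg3* and *Usp29* start head to head, and the 163 bases between their starts (chr7:6730420-6730582, plus strand) held 5 CpG dinucleotides, written in capitals, and no TGCCGC.
Between the starts of *Peg3* and *Usp29*: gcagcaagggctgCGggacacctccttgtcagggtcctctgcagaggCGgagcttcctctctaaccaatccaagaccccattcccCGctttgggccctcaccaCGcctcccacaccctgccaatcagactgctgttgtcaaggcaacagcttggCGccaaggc

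Bulk libraries held 17638358 to 98414914 reads on genes. The sorted populations carried their own markers: the summed normalized counts of 10 neural markers were 145426 to 156279 in neural libraries, of 9 mural markers 708558 to 765890 in mural libraries, of 10 endothelial markers 199024 to 240874 in endothelial libraries, and of 10 microglia markers 335879 to 381886 in microglia. Mural libraries also held neural markers at 22367 to 44315. They held the fibroblast genes *Col3a1* at 5045 to 6849 and *Col1a2* at 3125 to 4049, while *Dcn* was at 62.1 to 156, *Lum* at 0 to 138 and *Pdgfra* at 0 to 0.939. Haemoglobin *Hbb-bs* was at 4896 to 12992 in endothelial and 4086 to 6030.1 in neural libraries. Of the listed border macrophage genes, microglia libraries held *Mrc1* at 7987 to 10492 and *F13a1* at 5938 to 7321. *Pf4* was at 485 to 975 there, *Lyve1* at 247 to 527 and *Cd163* at 0 to 61.7. For the single cells, 1591 cells with more than 1500 transcripts were kept, 709 wild type and 882 knockout. Of the wild-type cells, 686 had a gate, and the class given by marker genes matched it in 98.37% of neural, 92.86% of mural, 93.33% of endothelial and every one of the microglia gate cells.

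The first comparison asked in which population each imprinted gene was highest. Microglia held the least RNA of the list as a whole. The members summed to 0.742 to 0.763% of all normalized counts in neural libraries, 0.69 to 0.9% in mural, 0.429 to 0.568% in endothelial and 0.17 to 0.246% in microglia libraries, and the microglia values did not overlap the others. Among the 38 members tested, 17 had their highest mean in the neural, 12 in the mural, 6 in the endothelial and 3 in the microglia libraries, as did 33.9, 20.4, 21 and 24.7% of all tested genes.

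Each population was then tested against the mean of the other 3 with limma on log2(normalized count + 1), and genes at a Benjamini-Hochberg adjusted p under 0.05 over all genes tested were called. In neural cells 21 of 38 members were higher and 6 lower, where 32.9 and 31.2% of all genes were called. In mural cells 19 members were higher and 5 lower, against 19.3 and 22.7%. In endothelial cells 15 were higher and 11 lower, against 19.7 and 22.4%. In microglia 5 were higher and 24 lower, against 23.4 and 22.3%. Either way 27, 24, 26 and 29 members were called, beside 64.2, 42, 42.1 and 45.7% of all genes. The median log2 difference of the members was, in the same order, 1.26, 0.91, -0.25 and -2.23, beside medians of 0.086, -0.11, -0.12 and -0.016 over all tested genes. The endothelial count of 26 was 16 without the second brain, where 32.7% of all genes were called. With the neural libraries left out, so that 1 kit remained, 4 members were higher and 18 lower in microglia (15.6 and 14.1% of all genes), 12 and 5 in endothelial cells (11 and 11.4%), and 19 and 3 in mural cells (12.7 and 14.8%). Fewer cells of a kind that express a gene and less RNA per cell cannot be told apart in bulk samples.

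**Figure D1:**
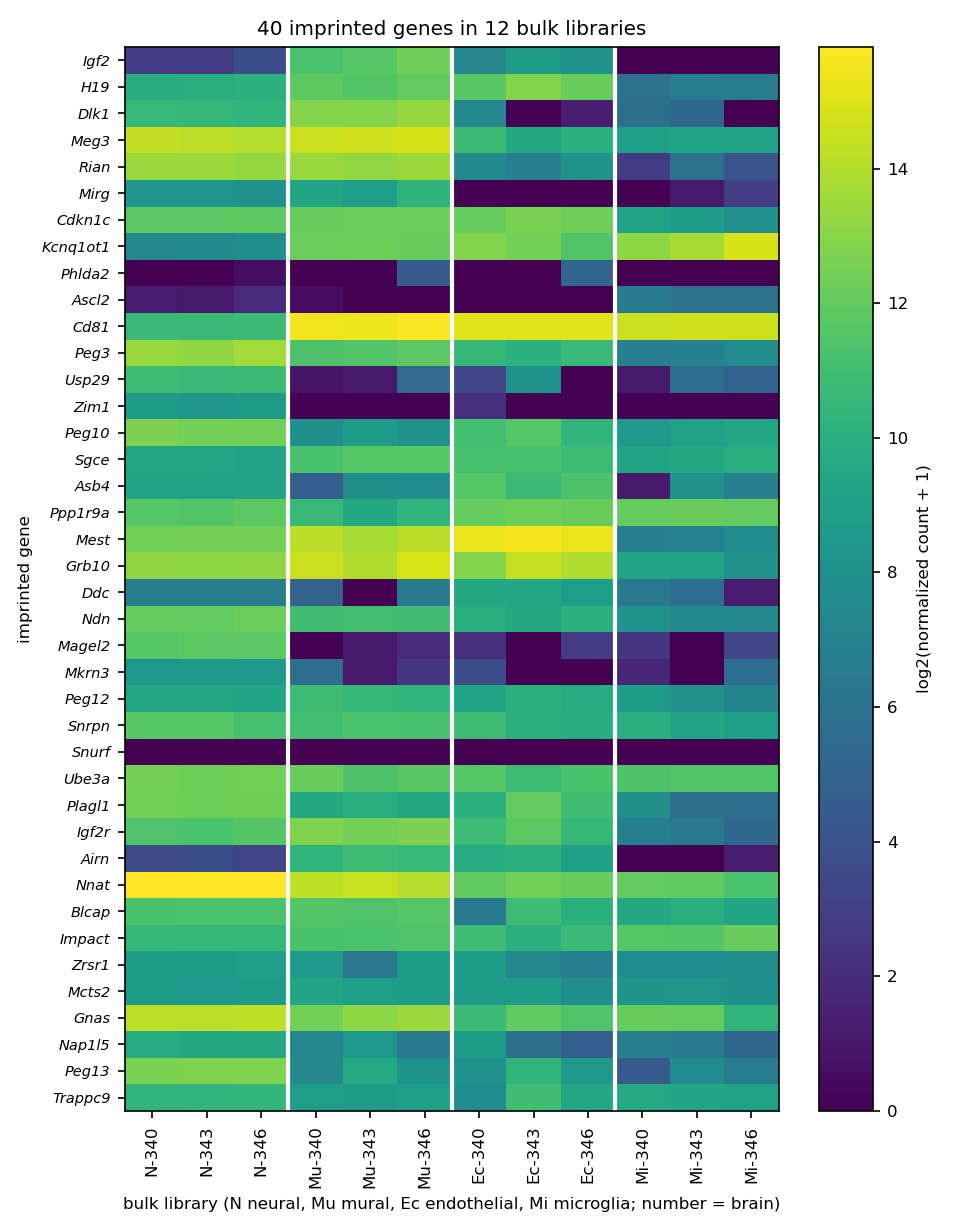
Heat map of the 40 imprinted genes (rows, grouped by locus) in the 12 bulk libraries (columns, grouped by population), with colour for log2(normalized count + 1). Darker colours are lower values. In the 3 microglia libraries 24 of 38 tested genes were called lower, and *Snurf* is at 0 in every library.

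*Igf2*, a fetal growth factor read from the paternal copy, was highest in mural cells. The library values, here and below in the order of the 3 brains, were 2623, 3375 and 5076 normalized counts in mural cells, 152, 385 and 279 in endothelial cells, 6.68, 6.09 and 12.7 in neural cells and 0 in all 3 microglia libraries. All 3 mural libraries lay above the other 9 (log2 difference 8.07 ± 0.45, adjusted p = 3.93e-07, exact permutation p = 0.00455, the smallest that 3 libraries against 9 can give), as 6.98% of all genes did when called. Against the floor of 3 reads per library in microglia, mural cells held at least 1016-fold and endothelial cells at least 74.9-fold more. The annotation gives 62.8% of the *Igf2* exon length to the read-through model *Gm49394* on the same strand, so reads of both cannot be told apart there. *H19*, the maternally expressed noncoding RNA of the same locus, was split otherwise, with 3478, 7275 and 4446 in endothelial, 3853, 3091 and 4166 in mural, 936, 971 and 1116 in neural and 58.2, 108 and 98.2 in microglia libraries. Endothelial and mural values overlapped, and *H19* was called higher in both (log2 difference 2.82 ± 0.24, adjusted p = 9.25e-06 and log2 difference 2.3 ± 0.24, adjusted p = 3.89e-05). Microglia were below the other 9 libraries (log2 difference -4.92 ± 0.24, adjusted p = 5.65e-08), where 5.95% of all genes were called and below.

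*Igf2r* clears IGF2 from the cell surface, and its antisense partner *Airn* is the paternal noncoding RNA that silences *Igf2r* in cis. *Igf2r* was at 6808, 5914 and 6733 in mural, 2818, 2588 and 3093 in neural, 1839, 3631 and 1469 in endothelial and 112, 83 and 39 in microglia libraries. Mural libraries were highest and microglia lowest without overlap (log2 difference 3.09 ± 0.32, adjusted p = 2.88e-05 and log2 difference -5.55 ± 0.32, adjusted p = 1.6e-07), while neural and endothelial values overlapped. *Airn* ran at 1308, 1820.5 and 1562 in mural and 877, 1110.1 and 498 in endothelial libraries against 12, 12.7 and 8.98 in neural and 0, 0 and 1.26 in microglia libraries. Mural libraries were above all others for *Airn* too (log2 difference 6.06 ± 0.43, adjusted p = 2.15e-06), and the endothelial libraries came next with no overlap. Of 5 listed receptors and RNA binders of IGF2, 3 were called higher in neural cells, *Igf2bp2*, *Insr* and *Igf1r* (2.32, 1.66 and 1.37 on the log2 scale), where 32.9% of all genes were called higher and 31.2% lower. In microglia, *Igf1r*, *Insr*, *Igf2bp1* and *Igf2bp2* were called lower (-1.46, -1.75, -1.37 and -1.5) and *Igf2bp3* higher (0.81), against 22.3% lower and 23.4% higher of all genes. In endothelial cells, *Igf1r*, *Insr* and *Igf2bp1* were called higher (1.98, 1.17 and 0.86) and *Igf2bp3* lower (-0.52), against 19.7% and 22.4%. In mural cells, *Igf1r*, *Insr* and *Igf2bp2* were called lower (-1.9, -1.07 and -0.58), against 22.7% lower of all genes.

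*Grb10* encodes an adaptor that restrains insulin and IGF signalling, and *Plagl1* a zinc finger factor that stops the cell cycle. *Grb10* was at 23444, 15788 and 30918 in mural, 7437, 21561 and 15384 in endothelial, 9321, 9091 and 9268 in neural and 636, 608 and 258 in microglia libraries. Only the microglia libraries stood apart from the other 9 (log2 difference -4.92 ± 0.34, adjusted p = 7.77e-07), although *Grb10* was also called higher in mural and in endothelial cells, the latter call being lost without the second brain (log2 difference 1.2, adjusted p = 0.067). *Plagl1* was at 5614, 5007 and 5376 in neural, 1038, 4063 and 1969.7 in endothelial, 776, 1019 and 757 in mural and 235, 56.9 and 50.4 in microglia libraries. Neural libraries were highest (log2 difference 3.32 ± 0.47, adjusted p = 0.000115) and microglia lowest (log2 difference -4.55 ± 0.47, adjusted p = 1.7e-05), and the endothelial library of the second brain came nearest to the neural libraries. The endothelial call of *Plagl1* was lost without the second and without the third brain (log2 differences 0.89 and 1.32, adjusted p = 0.274 and 0.194).

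The *Dlk1*-*Meg3* domain of chromosome 12 holds *Dlk1*, a paternally expressed inhibitor of Notch-like signalling, and the maternal noncoding RNAs *Meg3*, *Rian* and *Mirg*. All 4 were higher in mural and neural cells than in endothelial cells and microglia. *Dlk1* was at 7655, 7424 and 10102 in mural and 1548, 1472 and 1340.0 in neural libraries, but 165, 0 and 1.51 in endothelial and 57.1, 39.1 and 0 in microglia libraries. Mural values lay above all others (log2 difference 7.31 ± 1.48, adjusted p = 0.00254), and the wide error stands beside spread within the endothelial and the microglia libraries. *Dlk1* was called higher in neural cells as well (log2 difference 3.95 ± 1.48, adjusted p = 0.0367), which was lost without the second and without the third brain (log2 differences 3.7 and 3.17). *Meg3* was at 24212, 26327 and 28985 in mural, 20942, 19285 and 16924 in neural, 1751, 764 and 1038 in endothelial and 537, 589 and 607 in microglia libraries. No 2 populations overlapped for *Meg3*, mural being highest (log2 difference 3.52 ± 0.20, adjusted p = 4.44e-07) and microglia lowest (log2 difference -3.83 ± 0.20, adjusted p = 7.4e-08). *Rian*, host of box C/D small nucleolar RNAs, overlapped between neural libraries (11091, 10953 and 9999.8) and mural libraries (10530.2, 9628 and 10948). It was 189.6, 112 and 261 in endothelial and 5.94, 59.3 and 16.4 in microglia libraries, below all others in microglia (log2 difference -7.12 ± 0.50, adjusted p = 7.9e-07). *Mirg*, host of the microRNA cluster printed above, was at 661, 494 and 1250.1 in mural and 318, 320.1 and 275 in neural libraries, 0 in all 3 endothelial and 0, 1.19 and 6.29 in microglia libraries. *Mirg* was higher in mural cells without overlap (log2 difference 6.34 ± 0.60, adjusted p = 1.85e-05), and against the floor of 3 reads per endothelial library it was at least 171-fold higher in mural and at least 64.8-fold higher in neural cells. *Rtl1* and *Begain*, neighbours in the domain, were called higher in mural cells (3.55 and 5.2 on the log2 scale) and in neural cells (2.79 and 3.61), and lower in endothelial cells and microglia, and *Dio3* was called higher in neural cells.

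**Figure D2:**
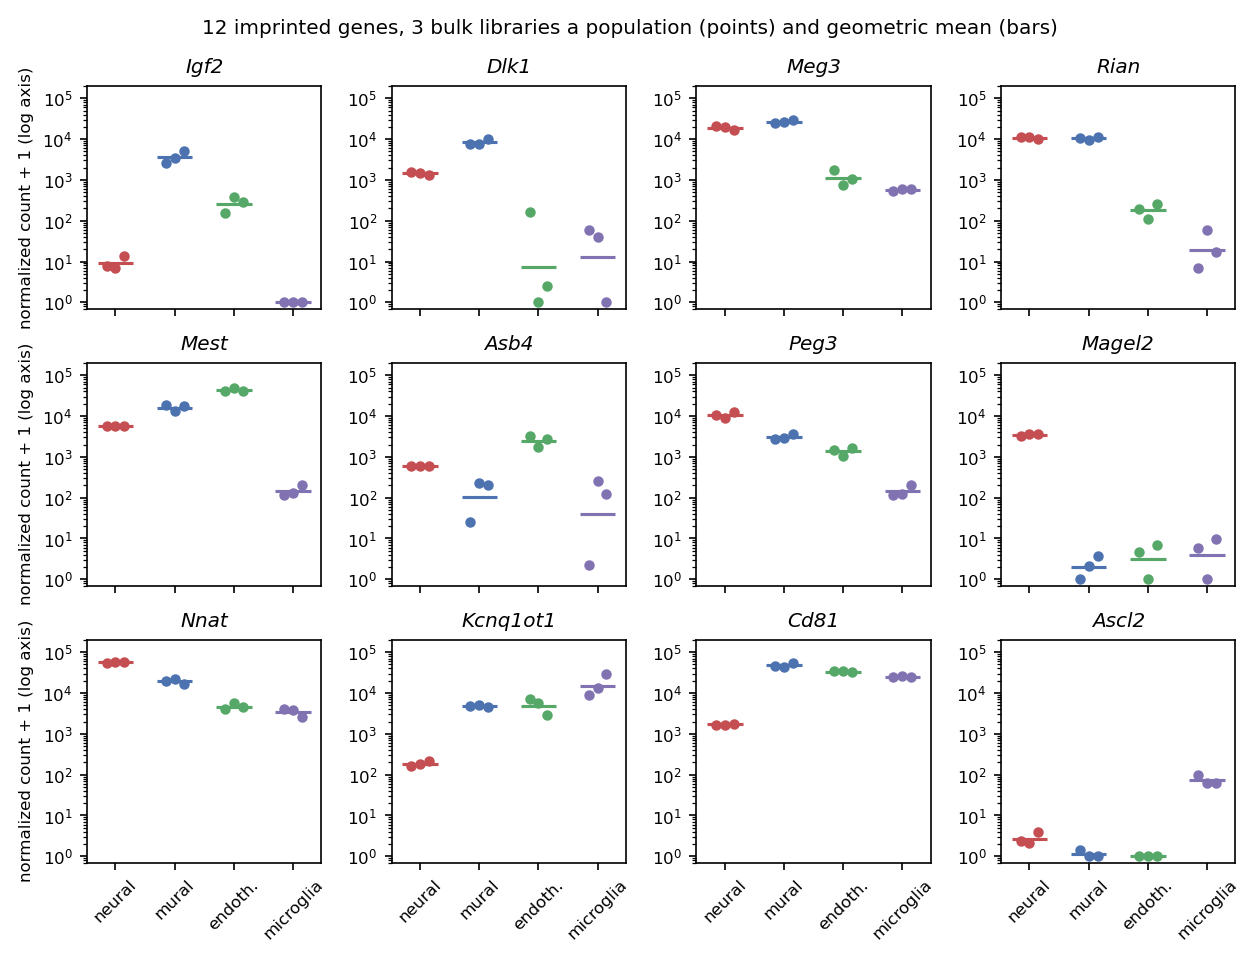
Normalized counts of 12 imprinted genes in the bulk libraries of each population, on a log axis after 1 is added. Points are libraries and bars are geometric means, and the mural points of *Igf2*, *Dlk1* and *Meg3*, the endothelial points of *Mest* and *Asb4*, the neural points of *Peg3* and *Magel2* and the microglia points of *Kcnq1ot1* and *Ascl2* lie above all other points of the gene.

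In the *Cdkn1c*-*Kcnq1ot1* domain of distal chromosome 7 the members went separate ways. *Cdkn1c*, which encodes the cyclin-dependent kinase inhibitor p57, was at 4315, 6382 and 5093 in endothelial, 4578, 4946 and 4903 in mural and 3595, 3597 and 3718 in neural libraries, against 603, 409 and 257 in microglia. Microglia lay below the other 9 (log2 difference -3.49 ± 0.21, adjusted p = 2.52e-07), and 30.7% of the exon length of *Cdkn1c* is shared with *Gm44732* on the opposite strand, which unstranded reads cannot tell apart. *Kcnq1ot1*, the paternal noncoding RNA that silences the domain in cis, was at 8959, 13073 and 29398 in microglia, 7058, 5634 and 2953 in endothelial, 4760.5, 5119 and 4559 in mural and 159, 178 and 211 in neural libraries. Microglia were above (log2 difference 3.22 ± 0.33, adjusted p = 1.56e-05) and neural libraries below all others (log2 difference -5.28 ± 0.33, adjusted p = 2.26e-07), and called genes did so in 11.2 and 17.1% of all genes. The *Kcnq1ot1* calls in mural and endothelial cells, which were higher against a mean that held the neural libraries, reversed sign without these (log2 differences -0.84 and -0.80, adjusted p = 0.153 and 0.19). *Kcnq1ot1* lies within *Kcnq1* on the opposite strand, and unstranded reads of both, intronic ones included, cannot be told apart. *Kcnq1*, a potassium channel gene, was called higher in endothelial cells (log2 difference 9.3 ± 0.79, adjusted p = 7.82e-06).

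*Cd81*, a tetraspanin gene, was the most abundant member outside neural cells per kilobase of exon. It was at 44876, 44186 and 53409.7 in mural, 33755, 33678 and 33337 in endothelial, 24301, 26239 and 24719.5 in microglia and 1671, 1670.2 and 1746 in neural libraries. No 2 populations overlapped, mural being highest (log2 difference 2.07 ± 0.067, adjusted p = 3.31e-08) and neural lowest (log2 difference -4.33 ± 0.067, adjusted p = 1.96e-11). Among the 3 populations of 1 kit, *Cd81* was lower in microglia (log2 difference -0.67, adjusted p = 0.000478), the opposite of the call with neural libraries in the mean. *Ascl2*, a transcription factor gene best known from placenta and intestine, was at 96.3, 60.5 and 61.7 in microglia, 0 in all 3 endothelial libraries, 1.33, 1.11 and 2.91 in neural and 0.437, 0 and 0 in mural libraries. Microglia were above all others (log2 difference 5.64 ± 0.38, adjusted p = 5.19e-07), at least 15.5-fold over the endothelial floor of 3 reads per library. *Phlda2*, a placental growth restrainer of the same domain, was not tested, with values of 0 in 9 libraries and 0.528 to 34.7 in the 3 others, all of the third brain.

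In the *Peg3* domain of proximal chromosome 7 the 3 members were called higher in bulk neural cells. *Peg3*, a paternally expressed zinc finger gene known for growth and maternal behaviour, was at 10349, 9207 and 12315 in neural, 2674, 2934 and 3577 in mural, 1504, 1077 and 1650.0 in endothelial and 115, 119.8 and 205 in microglia libraries. No 2 populations overlapped, neural cells being highest (log2 difference 3.64 ± 0.21, adjusted p = 1.08e-07, exact permutation p = 0.00909) and microglia lowest (log2 difference -4.64 ± 0.21, adjusted p = 2.6e-08). Called genes whose neural libraries were above all others made up 24.6% of all genes. *Usp29*, a ubiquitin protease gene that shares the promoter region printed above, was at 1799, 1654 and 1738 in neural libraries, against 0.874, 1.14 and 44.1 in mural, 8.86, 282 and 0 in endothelial and 1.19, 47.4 and 30.2 in microglia libraries. Neural libraries stood above the rest (log2 difference 7.35 ± 1.6, adjusted p = 0.00213), while the other 3 populations overlapped and ranged from 0 to 282. *Zim1*, a maternally expressed zinc finger gene, was at 411, 330.0 and 394 in neural libraries, 3.54 in the endothelial library of the first brain and 0 in the other 8 libraries (log2 difference 8.32 ± 0.50, adjusted p = 1.69e-07). Against the floors of 3 reads per library, it was at least 150-fold higher than in mural cells and at least 104-fold higher than in microglia.

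The Prader-Willi and Angelman region, also on chromosome 7, holds paternally expressed genes of neurons. *Ndn*, which encodes necdin, was at 4293, 4108 and 4819.6 in neural, 1972, 2093 and 1979 in mural, 957, 769 and 1086 in endothelial and 272, 179 and 171 in microglia libraries, 4 levels without overlap (log2 difference 2.6 ± 0.17, adjusted p = 3.16e-07 for neural cells). *Magel2*, which encodes a partner of ubiquitin ligases in endosomal sorting, was at 3244, 3559 and 3591 in neural libraries and between 0 and 8.81 in the other 9. The difference was 10.22 ± 0.81 on the log2 scale (adjusted p = 1.42e-06). *Mkrn3*, a makorin ring finger gene, followed with 344, 353 and 342 in neural libraries and 0 to 54.1 elsewhere (log2 difference 6.16 ± 1.31, adjusted p = 0.00184). *Peg12*, an intronless member of the FRAT family in Wnt signalling, differed from its neighbours: it was at 1833, 1486 and 1317 in mural, 595, 1052 and 864 in endothelial, 685, 677 and 626 in neural and 399, 255 and 133 in microglia libraries. Mural libraries were highest (log2 difference 1.6 ± 0.30, adjusted p = 0.00149) and microglia lowest (log2 difference -1.97 ± 0.30, adjusted p = 0.000283). *Ube3a*, the ubiquitin ligase gene of Angelman syndrome, was at 5798, 5105 and 5612 in neural, 4429, 2643 and 3407 in mural, 2728, 3009.7 and 2977 in microglia and 3212, 1829.7 and 2422 in endothelial libraries. Neural libraries lay above the rest (log2 difference 0.93 ± 0.18, adjusted p = 0.000919), and 27.3% of its exon length is shared with genes on the opposite strand, among them the antisense RNA *Snhg14*, itself called higher in neural cells (3.21). *Snrpn*, a spliceosome protein gene, ran from 497 in microglia to 3366 in neural cells, with the neural and mural ranges overlapping. *Snurf*, whose exons all lie within those of *Snrpn*, was listed at 0 in every library.

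On proximal chromosome 6 neighbouring members again took different populations. *Peg10*, a domesticated retrotransposon gene, was at 6664, 5829.5 and 5566 in neural, 2187, 3138 and 1356 in endothelial, 376, 543 and 684 in microglia and 243, 406 and 281 in mural libraries, highest in neural cells without overlap (log2 difference 3.12 ± 0.27, adjusted p = 2.38e-06). *Sgce*, which encodes epsilon-sarcoglycan and starts next to *Peg10* on the opposite strand, was highest in mural libraries at 2487, 3295 and 3298. It was at 2406, 2400.4 and 1804 in endothelial, 666, 767 and 1017 in microglia and 685, 680.0 and 603 in neural libraries (log2 difference 1.52 ± 0.17, adjusted p = 4.94e-05 for mural cells). *Asb4*, a maternally expressed ubiquitin ligase subunit gene known from vascular development, was at 3223, 1763 and 2664 in endothelial, 601, 581 and 589 in neural, 24.9, 226 and 206 in mural and 1.19, 249 and 119.6 in microglia libraries. Endothelial libraries were above the other 9 (log2 difference 4.18 ± 1.2, adjusted p = 0.0167), where 6.18% of all genes were called and above, and the call was lost without the third brain (adjusted p = 0.107). *Ppp1r9a*, which encodes neurabin, was at 4357, 5171 and 4451 in endothelial, 4306, 4499 and 4100.4 in microglia, 3246, 2922 and 3648 in neural and 1616, 767 and 1383 in mural libraries. Mural cells were below all others (log2 difference -1.75 ± 0.19, adjusted p = 4.54e-05), as were 4.27% of all genes when called.

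*Mest*, a paternally expressed gene of the alpha/beta hydrolase fold, was highest in endothelial cells. Values were 41617, 50030.4 and 40840.4 in endothelial, 18336, 13182 and 17361 in mural, 5665, 5707 and 5693 in neural and 118, 128 and 201 in microglia libraries. The 4 levels did not overlap (log2 difference 4.21 ± 0.16, adjusted p = 4.39e-08 for endothelial cells, exact permutation p = 0.05; log2 difference -6.77 ± 0.16, adjusted p = 6.37e-10 for microglia). Part of the *Mest* exons, 23.1%, is shared with *Copg2* on the opposite strand, whose own highest call was in neural cells (0.70 on the log2 scale). *Nap1l5*, a retrogene in the intron of *Herc3*, was at 833, 771 and 733 in neural libraries and 25.6 to 397 elsewhere (log2 difference 2.91 ± 0.72, adjusted p = 0.00457). *Herc3* itself was also called higher in neural cells (2.67). *Ddc*, which encodes the enzyme that makes dopamine and serotonin and neighbours *Grb10*, was at 735, 687 and 463 in endothelial, 111, 104 and 98.5 in neural, 84.4, 52.2 and 1.26 in microglia and 29.7, 0 and 86.4 in mural libraries. The endothelial libraries were above all others (log2 difference 4.28 ± 1.32, adjusted p = 0.023), and the call was lost without the first brain, without the second and without the neural libraries (adjusted p = 0.113, 0.0744 and 0.0536).

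*Nnat*, which encodes the small endoplasmic reticulum proteolipid neuronatin, had the highest normalized count of all members. It was at 54929, 56910.3 and 57285 in neural, 20066, 22396 and 16961 in mural, 4003, 5582 and 4434 in endothelial and 4171, 3905 and 2624 in microglia libraries. Neural cells were above all others (log2 difference 3.04 ± 0.15, adjusted p = 3.72e-08), while endothelial cells and microglia overlapped. *Blcap*, whose intron holds *Nnat*, was highest in mural libraries (2787 to 3275) without passing the test (log2 difference 1.54 ± 0.67, adjusted p = 0.087), and the endothelial library of the first brain was at 93.9 beside 1833 and 1065 in the other 2. *Gnas*, the gene of the stimulatory G protein subunit, was at 19088, 19517 and 20489 in neural, 5663, 9086 and 11188 in mural, 4536, 4229 and 1303 in microglia and 1731, 3906 and 2769 in endothelial libraries. Neural libraries stood above (log2 difference 2.29 ± 0.37, adjusted p = 0.000293), and 22% of its exon length is shared with *Nespas* and Gm20721 on the opposite strand. *Peg13*, a paternal noncoding RNA within an intron of *Trappc9*, was at 6367, 6750.4 and 6962 in neural libraries and 21.4 to 1310 elsewhere (log2 difference 4.8 ± 0.68, adjusted p = 0.000107). Its host *Trappc9*, a trafficking complex gene, was called higher in neural cells by a narrow margin (log2 difference 1.24 ± 0.49, adjusted p = 0.0468), and the call was lost under several other settings, a block for the brain among them (adjusted p = 0.0542).

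*Impact*, which encodes an inhibitor of the stress kinase GCN2, was 1 of the 3 members highest in microglia. It was at 3161, 2999 and 4457 in microglia, 2428, 2538 and 2853 in mural, 1791, 948 and 1688 in endothelial and 1493, 1461 and 1445 in neural libraries, above all others in microglia (log2 difference 0.99 ± 0.19, adjusted p = 0.00172). The retrogenes *Zrsr1* and *Mcts2* were called in none of the 4 comparisons and ran from 78.8 to 440 and from 210 to 651. Their X-linked parent genes *Zrsr2* and *Mcts1* were both called higher in microglia (1.73 and 0.87). Per kilobase of exon, the highest members were *Nnat* in neural cells at a mean of 30823 normalized counts per kilobase, and *Cd81* in mural cells at 16496, in endothelial cells at 11667 and in microglia at 8714.

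Grouped by the textbook parent of the expressed copy, which was not measured in these cells, both groups had members called in every population. Beside the counts of this paragraph, 23.4 and 22.3% of all genes were called higher and lower in microglia, 19.7 and 22.4% in endothelial cells, 19.3 and 22.7% in mural cells, and 32.9 and 31.2% in neural cells. Of the paternally expressed genes, 2 of 22 tested were higher and 14 lower in microglia, 8 and 4 in endothelial cells, 11 and 2 in mural cells, and 12 and 5 in neural cells. Of the maternally expressed genes, 3 of 16 were higher and 10 lower in microglia, 7 and 7 in endothelial cells, 8 and 3 in mural cells, and 9 and 1 in neural cells. Of the genes that keep imprints, 7 of 8 in bulk neural cells (*Zfp57*, *Trim28*, *Setdb1*, *Dnmt1*, *Zfp445*, *Uhrf1* and *Ctcf*) were called higher, *Zfp57* by 3.21 on the log2 scale. *Zfp57* was called lower in microglia (-3.7). In the neural gate of the single cells, with 1 chemistry, 1 of 6 keepers tested was called higher, *Ctcf*, and 1 lower, *Uhrf1* (0.58 and -1.06), where 22.5 and 17.3% of all genes tested in that gate were. Of 23 tested neighbours that are host genes or flank the members, 5 were higher and 10 lower in microglia, 5 and 8 in endothelial cells, 7 and 7 in mural cells, and 12 and 8 in neural cells. Among these, *Calcr* and *Th* were called higher in neural cells (6.36 and 5.6), *Ins2* in mural cells (6.31) and *Tspan32* in microglia (8.08).

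The sorted single cells gave a second reading of the same populations with 1 chemistry for every gate. Transcripts were summed per plate and gate and tested with edgeR, and 29 members passed its filter among 9281 genes. In the neural gate 16 members were higher and 5 lower, where 22.5 and 17.3% of all genes were. In the mural gate 16 were higher and 3 lower (13.5 and 8.3%), in the endothelial gate 11 and 5 (16.4 and 6.96%), and in the microglia gate 2 and 17 (22.2 and 21.2%). Either way 21, 19, 16 and 19 members were called, beside 39.8, 21.8, 23.3 and 43.4%. Member medians of the log2 difference were 0.97, 0.92, 0.26 and -2.91, beside 0.041, -0.050, -0.022 and -0.029 over all genes. The labels do not say that plates are separate embryos, so p-values measure the spread between plates. Plate 3 held only 6 to 14 cells per gate. The counts of members called therefore rest on plates 1 and 2. In the neural gate 11 were called without plate 1 and 11 without plate 2, where 23.5 and 23.2% of all genes were. In the mural gate 12 were called without plate 1 (12.2% of all genes), and in the endothelial gate 8 without plate 1 and 7 without plate 2 (11.8 and 10.9%).

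*Igf2* in the mural gate was at 6938, 7364 and 4868 CPM, the scaled share of a sum's transcripts, on plates 1, 2 and 3, the order used for all plate values below. The other gates held 550.5, 366 and 1192 (endothelial), 105, 60.5 and 59 (neural) and 87.7, 117 and 36.5 (microglia). Mural sums were above the rest (log2 difference 5.15 ± 0.29, adjusted p = 3.47e-22). *Igf2* transcripts were found in 94.3% of 210 mural gate cells (exact 95% interval 90.2 to 97), and also in 57% of 128 microglia gate cells (48 to 65.7), whose bulk libraries held no read. That share is read as background and not as expression, its source was not tested, and after thinning each cell to 1500 transcripts the shares were 88.6% and 11.7%. Of the mural gate cells, 179 of 210 held a transcript of at least 1 of 6 fibroblast markers, mostly *Col3a1* (149 cells) and *Col1a2* (139 cells), while *Dcn* was found in 2 cells, *Pdgfra* in 1 and *Lum* in 0. *Igf2* was at 3198 CPM in the 31 cells without any and at 7470 CPM in the 179 cells with one. The 31 cells also held more of the neural members, with *Nnat* at 1667 against 569 CPM and *Ndn* at 336 against 90.1 CPM, and 15 of the 210 mural gate cells were neural-like by their markers. With the 179 cells left out, the mural call of *Igf2* remained (log2 difference 4.01) and that of *Cd81* was lost (0.18). The part of fibroblasts and of neural cells in the mural values was not tested further.

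*Dlk1*, *Meg3*, *Mirg*, *Igf2r* and *H19* were called higher in mural cells in both data sets, although the mural gate call of *Mirg* was lost under DESeq2 (log2 difference 2.91, adjusted p = 0.112). *Dlk1* was at 588, 627 and 232 CPM in the mural gate and 1.66 to 82.8 elsewhere (log2 difference 4.93 ± 0.31, adjusted p = 1.67e-20). *Meg3* was at 1460.0, 1783 and 1522 in the mural and 645, 628 and 481 in the neural gate, with 14.6 to 348 in the others (log2 difference 3.73 ± 0.28, adjusted p = 4.37e-17). *Igf2r* was at 315, 339 and 476 in the mural gate and 46.7, 35.5 and 29.5 in the neural gate (log2 difference 3.5 ± 0.25, adjusted p = 2.75e-18). These mural sums did not overlap those of any other gate. *Mest* was again highest in the endothelial gate on plates 1 and 2, at 333, 438 and 149 CPM over the 3 plates, against 153, 186 and 256 in the mural and 1.75, 1.82 and 18.2 in the microglia gate (log2 difference 3.45 ± 0.28, adjusted p = 3.82e-16). *Asb4* was at 122, 132 and 0 in the endothelial gate and 0 to 45.9 elsewhere (log2 difference 4.2 ± 0.37, adjusted p = 1.21e-14), absent from the 13 endothelial cells of plate 3. Of the neural genes, *Peg3*, *Ndn* and *Nnat* were called higher in the neural gate too. *Ndn* was at 386, 357 and 68.8 CPM there and 128, 109.6 and 92.9 in the mural gate, which overlapped through plate 3 (log2 difference 3.75 ± 0.28, adjusted p = 3.06e-17). *Nnat* was at 3065, 3023 and 1238 CPM in the neural and 701, 727 and 209 in the mural gate (log2 difference 4.33 ± 0.30, adjusted p = 7.8e-19). *Impact* was called higher in microglia again (80.6, 108 and 91.2 CPM in the microglia gate against 0 to 31.3 elsewhere, log2 difference 2.0 ± 0.28, adjusted p = 2.35e-08).

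**Figure D3:**
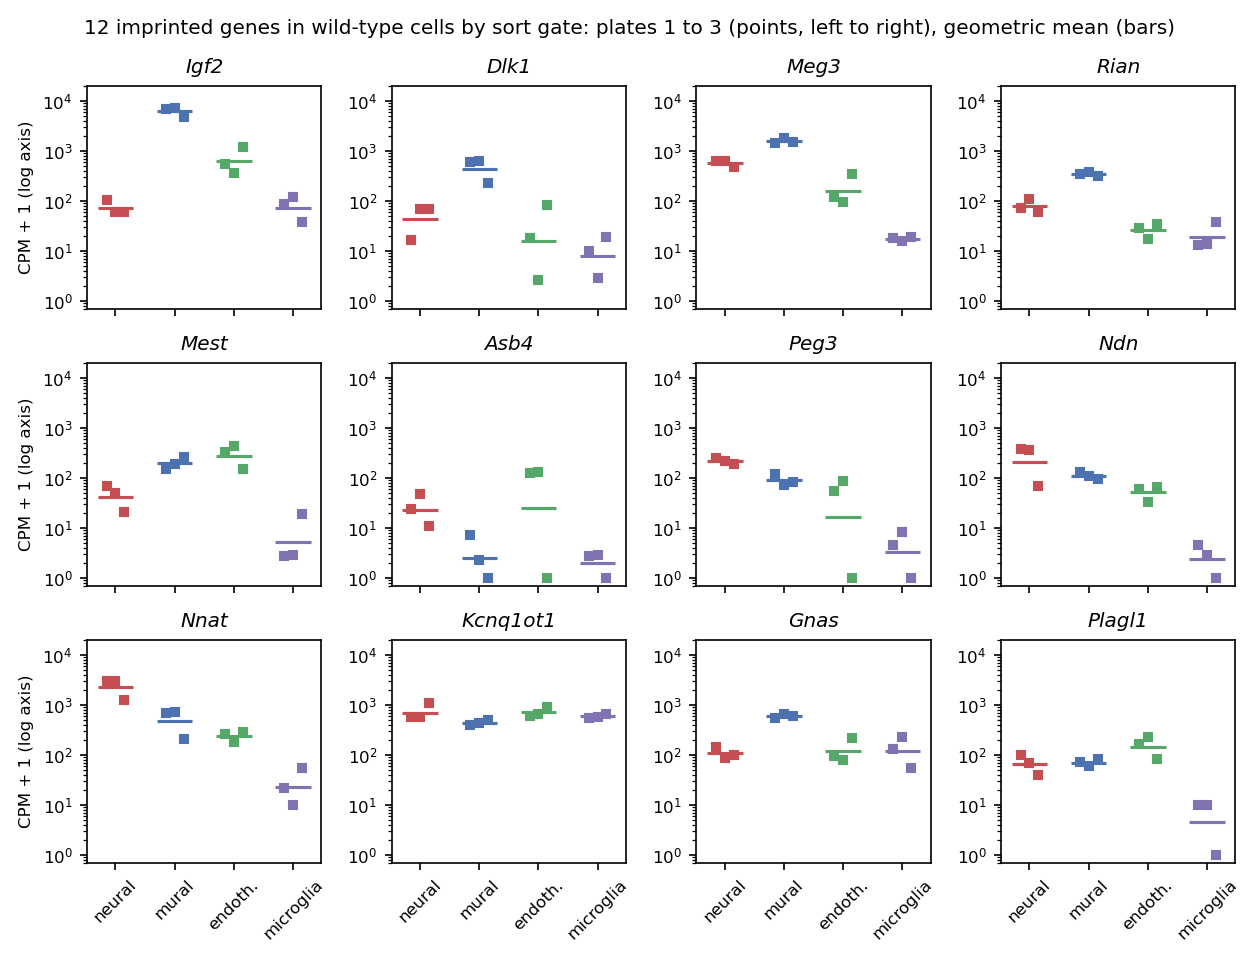
Levels in CPM, with 1 added and on a log axis, of 12 imprinted genes in the wild-type sort gates. Points are sums over the cells of 1 plate and gate and bars are geometric means over the 3 plates, and *Kcnq1ot1* shows overlapping gates while *Igf2*, *Dlk1* and *Meg3* are highest in the mural gate on every plate.

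Some members differed between the bulk and the single-cell data. *Kcnq1ot1*, the lowest in neural cells in bulk, was at 563, 572 and 1081 CPM in the neural gate, against 535, 578 and 657 in the microglia, 587, 647 and 928 in the endothelial and 391, 444 and 499.6 in the mural gate. It passed the test in no gate (log2 difference 0.52 ± 0.28, adjusted p = 0.128 for the neural gate), where the bulk neural difference was -5.28. *Gnas*, highest in neural cells in bulk, was called higher in the mural gate at 558, 670.1 and 604 CPM (log2 difference 2.24 ± 0.25, adjusted p = 6.21e-11). In the neural gate it was at 146, 85.5 and 98.2 CPM, which overlapped the 95.6, 76.5 and 215 CPM of the endothelial and the 132, 228 and 54.7 CPM of the microglia gate. Its call as lower there (log2 difference -0.80 ± 0.30, adjusted p = 0.0298) was lost under DESeq2 (adjusted p = 0.115), without plate 2 (adjusted p = 0.374) and with the mural cells that held a fibroblast transcript left out (adjusted p = 0.102). *Plagl1* was highest in the endothelial gate at 163, 225 and 82.8 CPM (log2 difference 2.3 ± 0.25, adjusted p = 1.74e-11), with 97.4, 68.8 and 39.3 in the neural gate. *Rian* was at 352, 372 and 314 in the mural and 72.1, 111 and 59 in the neural gate, levels that did not overlap here and did in bulk. *Usp29*, above all others in bulk neural libraries, was at 44.8, 60.5 and 59 CPM in the neural, 18.7, 39.9 and 116 in the endothelial, 18.5, 11.1 and 46.5 in the mural and 12.3, 5.47 and 182 in the microglia gate. These ranges overlapped, and the neural call of *Usp29* (log2 difference 1.43 ± 0.43, adjusted p = 0.00566) was lost under DESeq2, without plate 1 and without plate 2. *Ascl2* had no transcript in any gate, with 50776 to 959619 transcripts in a sum. mCEL-Seq2 reads the 3′ end of polyadenylated RNA and the bulk kits read whole transcripts, and the part of kit or read position in these differences was not tested.

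Within the neural cells, marker scores split 370 neural-like cells of all 6 plates into progenitor-like and neuron-like cells, with 12 near the boundary. No imprinted gene was among the markers. Sums per plate, genotype and state were tested with edgeR, in which 32 members passed the filter among 7553 genes. In wild-type cells 7 members rose from progenitor-like to neuron-like cells (*Magel2*, *Nap1l5*, *Snrpn*, *Peg13*, *Usp29*, *Ndn* and *Nnat*) and 3 fell (*Peg12*, *Grb10* and *Plagl1*), beside 6.01 and 5.98% of all genes. In knockout cells 6 rose, the same genes but *Nap1l5*, and 4 fell, the same 3 and *H19*, beside 8.0 and 7.68%. The states of a plate are paired, and with a block for the plate 13 wild-type and 14 knockout calls were made among 28 members tested. Of all 6054 genes tested, the blocked fit called 21.4 and 24.8%, against 12 and 15.7% with all plates and no block. The blocked fit holds no plate 4, which has no neuron-like sum, and without plate 4 but with no block there were 12 and 14 calls (18.5 and 21.3% of all genes). That fit made every call which the block added below, except that of *Cdkn1c* in wild-type cells (adjusted p = 0.0572). The block added *Cdkn1c* and *Meg3*, both maternally expressed, as higher in neuron-like cells of both genotypes. *Cdkn1c* was at 354, 333 and 358 CPM in wild-type neuron-like and 188, 70.8 and 40.6 in progenitor-like cells without overlap, with an adjusted p of 0.103 over all plates without and 0.00416 with the block (log2 difference 1.45). For *Meg3* the adjusted p was 0.0888 without and 0.000172 with it (log2 difference 1.62). It also added *Cd81* as lower in wild-type cells (log2 difference -1.48, adjusted p = 0.00674), and *Rian*, *Blcap* and *Nap1l5* as higher in knockout cells (adjusted p = 0.00391, 0.0252 and 0.0151). The paternally and the maternally expressed members were not compared by a test. Of wild-type calls there were 10 with all plates and 3 without plate 1 or without plate 2 (4.37 and 1.83% of all genes). Of knockout calls there were 10 with all plates, 4 without plate 5 and 5 without plate 6 (4.41 and 6.82%). Only the calls of *Grb10* and *Snrpn* in wild-type cells and of *Grb10*, *Magel2* and *Plagl1* in knockout cells remained when each plate was left out in turn. The wild-type calls of *Magel2*, *Peg13*, *Usp29*, *Ndn* and *Nnat* were lost without plate 1 or 2, that of *Plagl1* without plate 2, and that of *Peg12* without plate 2 or 3, while *Nap1l5* did not pass the filter without plate 1 or 2, nor *Peg12* without plate 1. The knockout calls of *Usp29*, *Ndn*, *Nnat* and *Peg12* were lost without plate 5 or 6, and those of *Snrpn* and *Peg13* without plate 5 (adjusted p = 0.101 and 0.0798).

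*Snrpn* was at 269, 262 and 232 CPM in wild-type neuron-like cells and 61.6, 11.8 and 20.3 in progenitor-like cells of plates 1, 2 and 3 (log2 difference 2.65 ± 0.44, adjusted p = 0.000773), higher on every plate. On knockout plates it was 259 and 257 in neuron-like cells (plates 5 and 6) and 88.5, 48.9 and 71.2 in progenitor-like cells (plates 4, 5 and 6) (log2 difference 1.88 ± 0.40, adjusted p = 0.00337). *Magel2* was at 144, 129.5 and 0 against 2.94, 5.90 and 20.3 in wild-type cells (log2 difference 4.13 ± 0.81, adjusted p = 0.00268), the 9 neuron-like cells of plate 3 holding none. In knockout cells it was 66.6 and 100.2 against 5.31, 2.45 and 0 (log2 difference 4.35 ± 0.78, adjusted p = 0.000822). *Usp29* was at 90.8, 89.4 and 105 against 11.7, 11.8 and 40.6 in wild-type cells (log2 difference 2.5 ± 0.57, adjusted p = 0.00774), while its neighbour *Peg3* was at 304, 280.5 and 105 against 329, 136 and 284 and did not pass (log2 difference -0.11 ± 0.45, adjusted p = 0.928). *Peg13* was at 97, 83.2 and 42.1 against 14.7, 11.8 and 0 (log2 difference 2.63 ± 0.56, adjusted p = 0.00448), and *Nap1l5* at 75.1, 74 and 21.1 against 8.80, 0 and 0 (log2 difference 3.49 ± 0.89, adjusted p = 0.0143). *Ndn* and *Nnat* had log2 differences of 1.53 and 1.39 in wild-type cells (adjusted p = 0.0331 and 0.0123) and 1.4 and 1.33 in knockout cells (adjusted p = 0.0491 and 0.0182). The knockout call of *Ndn* was lost under DESeq2 (adjusted p = 0.0878) and without plate 1 or 2 as well, its log2 difference being 0.80 without plate 5. The knockout call of *Usp29* (log2 difference 1.83 ± 0.48, adjusted p = 0.0142) was lost under DESeq2 too (adjusted p = 0.0659). In the other direction, *Grb10* was at 72, 77.1 and 42.1 in wild-type neuron-like against 308, 313 and 244 in progenitor-like cells (log2 difference -2.19 ± 0.34, adjusted p = 0.000449), and no plate overlapped. Knockout cells held 71.5 and 75.2 against 313, 565 and 379 of *Grb10* (log2 difference -2.52 ± 0.37, adjusted p = 0.000166). *Plagl1* was at 56.3, 37 and 21.1 against 188, 189 and 60.9 in wild-type cells (log2 difference -1.99 ± 0.41, adjusted p = 0.00387) and 27.1 and 18.8 against 303, 347 and 198 in knockout cells (log2 difference -3.54 ± 0.48, adjusted p = 7.51e-05). *Peg12*, low throughout, was at 3.13, 6.17 and 0 against 35.2, 23.6 and 81.2 in wild-type cells (log2 difference -3.15 ± 0.85, adjusted p = 0.0197). *H19* was called lower in knockout neuron-like cells (log2 difference -2.21 ± 0.64, adjusted p = 0.0243), a call that was lost without plate 4 (adjusted p = 0.0988), without plate 6 (adjusted p = 0.215) and with a block for the plate (adjusted p = 0.09).

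**Figure D4:**
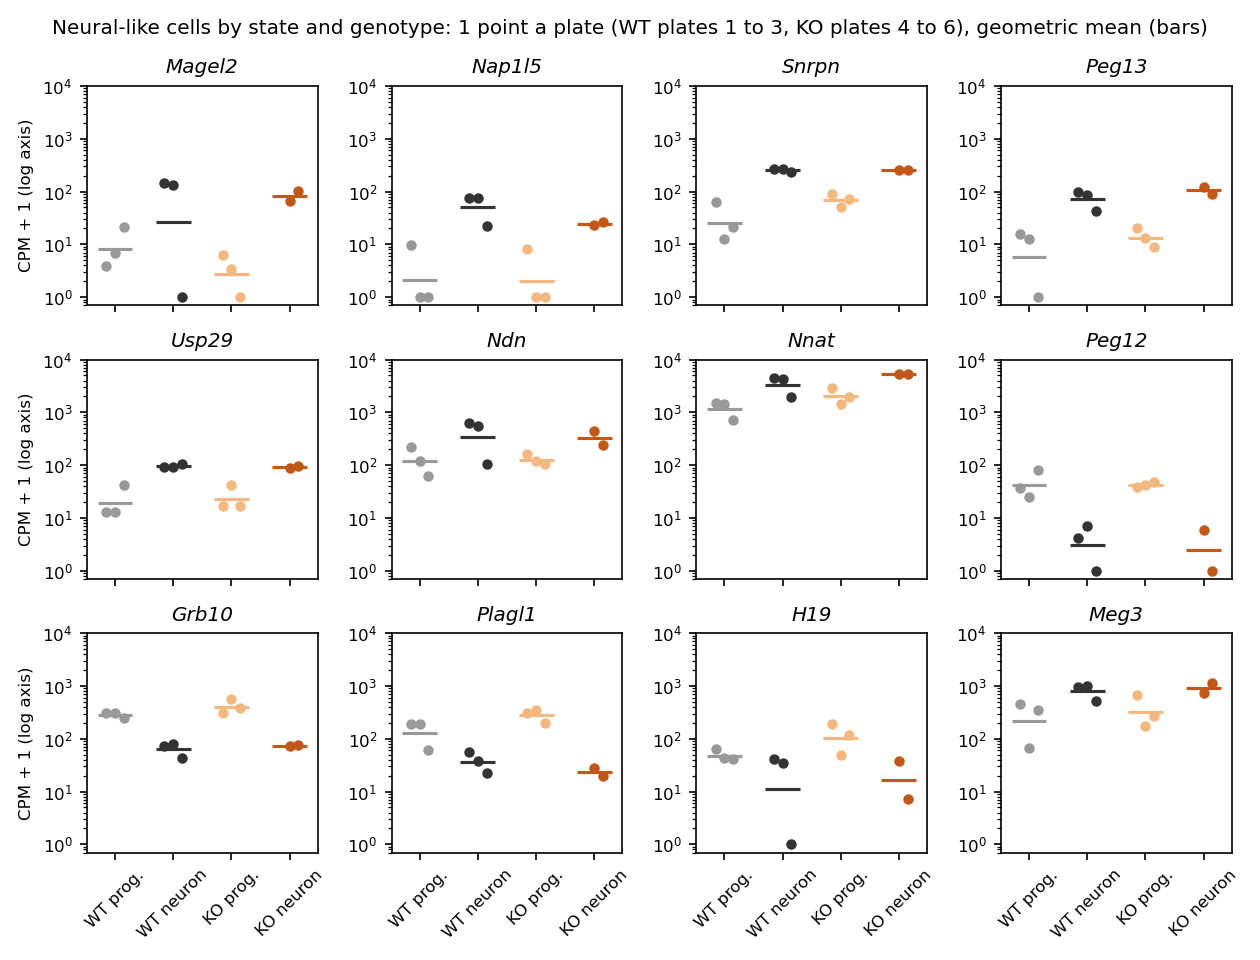
Levels in CPM, with 1 added and on a log axis, of 12 imprinted genes in progenitor-like and neuron-like cells of wild-type and knockout plates. Points are plates and bars are geometric means, and *Snrpn* and *Peg13* lie higher in neuron-like cells while *Grb10* and *Plagl1* lie lower, in both genotypes.

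The difference between the wild-type and the knockout step from progenitor-like to neuron-like cells was tested itself. None of the 32 members passed by edgeR (0 of 7553 genes in all, 0.0%) or by DESeq2, and 1, *Plagl1*, had an unadjusted p under 0.05 by either tool (log2 difference -1.55 ± 0.63, adjusted p = 1.0 by edgeR). Of all genes, 1.92% by edgeR and 0.861% by DESeq2 had an unadjusted p under 0.05. The errors of the members' differences by edgeR ran from 0.49 to 1.57 on the log2 scale. Calls in 1 genotype and not in the other, as for *Nap1l5* and *H19*, are therefore not shown to differ.

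The knockout was compared with wild type in the neural-like cells, the 1 class with at least 5 cells on every plate. The fit held the 11 sums per plate and state described above, so that 5 of the 6 plates entered with 2 sums each and its errors are not those of 3 plates against 3. The targeted gene *Kat8* was at 4.63, 7.65 and 21.9 CPM on knockout plates 4, 5 and 6 and 21.2, 25.1 and 9.45 on wild-type plates 1, 2 and 3. The groups overlapped and the test was not passed (log2 difference -0.98 ± 0.60, adjusted p = 0.884), and 3′ tags may lie outside a deleted part, so the label is not checked by this gene. Genotype and plate cannot be told apart. No imprinted gene was called out of 32 tested, and 2 of 7553 genes were in all (0.0265%, or 0.0132% in each direction), the sex-linked *Xist* and *Ddx3y*. At an unadjusted p under 0.05 there was 1 member, *Nnat* (log2 difference 0.63 ± 0.25, adjusted p = 0.869), by edgeR and by DESeq2, which called no member either. Of all genes, 5.18% by edgeR and 2.54% by DESeq2 had such a p. Log2 differences of the 32 members ran from -1.01 (*Nap1l5*) to 0.88 (*Gnas*), with errors of 0.25 to 0.77 and a median error of 0.40, so that small changes could not be seen at this precision. With 1 sum per plate over both states, 3 plates against 3, none of 32 members and 0 of 7362 genes were called by edgeR. There, unadjusted p fell under 0.05 for 2 members, *Grb10* (log2 difference 0.66 ± 0.24, unadjusted p = 0.0242) and *Plagl1* (1.04 ± 0.42, unadjusted p = 0.0354), and no longer for *Nnat* (0.36 ± 0.26, unadjusted p = 0.194). The mix of states differed between plates: progenitor-like cells, in which *Grb10* and *Plagl1* were higher, made up 96.7, 45.6 and 35.9% of the neural-like cells on knockout plates 4, 5 and 6 and 50, 31.7 and 40% on wild-type plates 1, 2 and 3, and its part in the difference was not tested. *Igf2*, for example, was at 221, 129 and 112 CPM on knockout and 124, 69.8 and 56.7 on wild-type plates with both states pooled, where its log2 difference was 0.75 ± 0.36, unadjusted p = 0.0699, while it was 0.58 over the separate state sums. These levels are near the 87.7, 117 and 36.5 CPM of *Igf2* in the microglia gate, which were read as background above, and are not read as expression. The progenitor-like cells of plate 4, which came with 276 mural-like cells, held the highest *Igf2*, *H19* and *Cd81* of the 6 plates, and without plate 4 again 0 members were called.

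**Figure D5:**
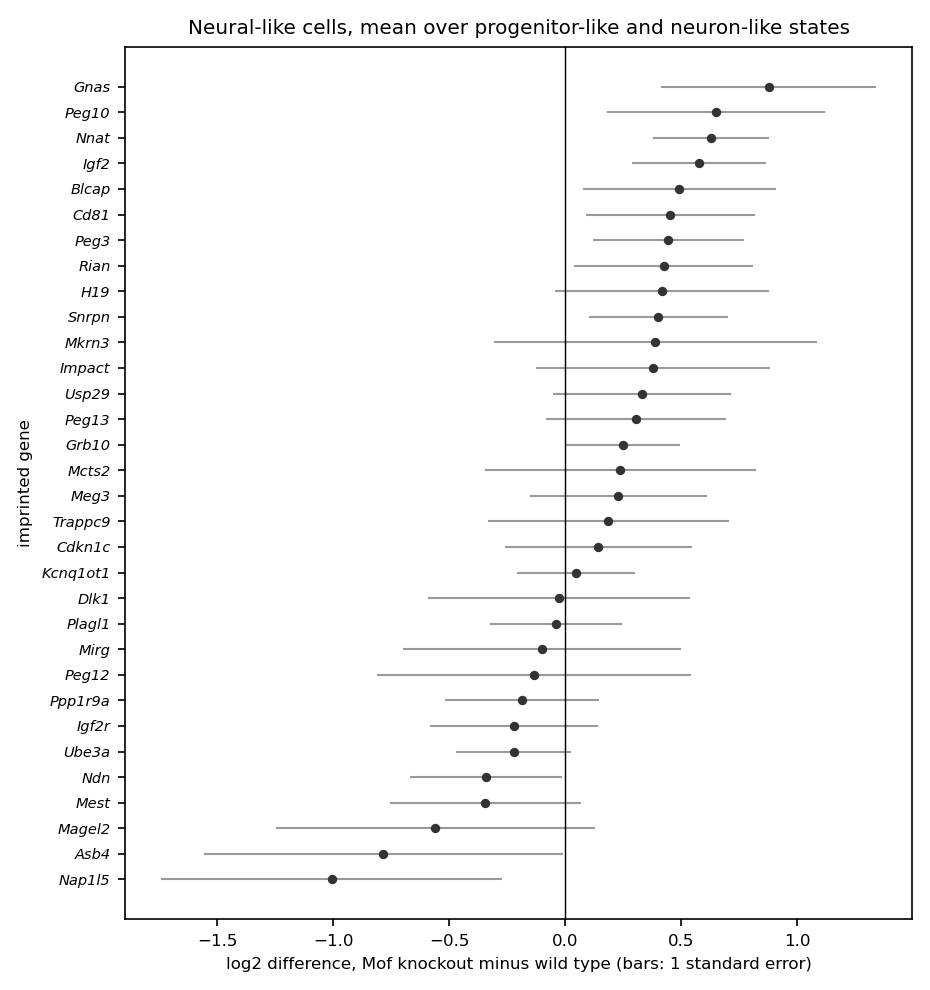
Log2 difference, knockout minus wild type, of the 32 imprinted genes tested in neural-like cells. Points are estimates of edgeR and bars are 1 standard error, and the estimates run from -1.01 for *Nap1l5* to 0.88 for *Gnas*, with none past an adjusted p of 0.05.

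Mural-like cells reached the minimum of 10 set for this test on knockout plates 4 (276 cells) and 6 (10 cells) and on wild-type plates 1 to 3. Plate 6 only just reached it, and the 1 such cell of plate 5 was not used. None of 28 members tested was called by edgeR, where 7 of 8016 genes were (0.0873%, 0.0624% higher and 0.025% lower), or by DESeq2. Unadjusted p fell under 0.05 for 3 members by edgeR (*H19*, *Igf2r* and *Ppp1r9a*) and for 1 by DESeq2 (*H19*). Of all genes, 3.32 and 0.2% had such a p. *Igf2* was at 8283 and 7635 CPM on knockout plates 4 and 6, against 8000.0, 7506 and 4699 on wild-type plates (log2 difference 0.22 ± 0.24, adjusted p = 0.999). *H19* was at 1187 and 1203 against 743, 802 and 632 (log2 difference 0.67 ± 0.26, adjusted p = 0.999), and both knockout plates were above the 3 wild-type plates. Endothelial-like cells were numerous on knockout plate 6 alone and microglia-like cells on plate 5 alone, so their values stand without a test. Knockout endothelial-like cells held 370.2 CPM of *Mest*, against 356, 433 and 119 on wild-type plates, and 113 of *Asb4* against 134, 130.1 and 0. Knockout microglia-like cells held 89 CPM of *Impact* against 81.4, 106 and 89.9, and 30.1 of *Meg3* against 18.3, 14.3 and 18.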

How the data were processed

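Bulk RNA-seq of 12 libraries and scRNA-seq of 23 libraries were analysed from the deposited tables. The submitters' processing notes name STAR, featureCounts, DESeq2, BWA 0.6.2-r126 and mm10, with no role for each. The deposited bulk values are a signal of normalized counts, which the authors made by dividing reads on genes by 1 factor per library. These gave whole reads for 100.0% of 124078 values of up to 100 reads, within 0.01. The deposited single-cell tables hold expected counts of transcripts per well, with decimals, and wells are numbered alike in every library. Cells with more than 1500 transcripts were kept, summed per plate and gate, class or state (at least 5 cells, and 10 for mural-like cells), and tested with edgeR 4.0.16 after rounding. Bulk values were tested with limma 3.58.1 (R 4.3.3) as log2(value + 1) where the mean was at least 10. All tests were two-sided with Benjamini-Hochberg adjustment over all genes tested, and ± is 1 standard error. Exact intervals are Clopper-Pearson at 95%, and they and the floor of 3 reads cover counting error only.

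Members and lists were chosen with earlier results of these data known. Named genes are the members, with every library's value where a population was called and did not overlap the others, and for other genes those of the listed neighbours, imprint keepers and IGF2 binders. The 4 populations of a brain were sorted together, so brain numbers pair the libraries, although residuals of same-numbered libraries correlated at only -0.054 to 0.080 over 18 pairs. The limma and edgeR fits were run on simulated data in which 200 genes were raised 4-fold. Of these, 91 were called in bulk neural cells, 199 in the neural gate, 191 for the knockout and 140 for wild-type neuron-like cells. Unchanged genes called numbered 9, 4, 14 and 10. The test of mural-like cells was not simulated. Other pseudocounts, filters, normalizations and tools, blocks and left-out libraries were tried. *Snurf* and *Phlda2* did not pass the minimum.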

Additional observations from a re-analysis of the deposited data

How the results depend on the processing

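The 106 bulk, 75 gate and 20 neuron-like calls of members gave 1841 values under other settings: 1639 kept direction and side of the threshold, 195 kept direction and lost the call, and 7 reversed. In 12 more cases the gene did not pass the filter of that setting. Member results without a call, all of the knockout against wild type included, were tested 2021 times under other settings and gained a call 62 times, 0 of them for the knockout or its difference between states. All 7 reversals came with the neural libraries left out: *Kcnq1ot1* in mural (-0.84) and endothelial cells (-0.80), *Cd81* in endothelial cells (-0.036) and microglia (-0.67), *Zim1* in endothelial cells (0.73), and *Magel2* in endothelial cells (0.19) and microglia (0.60). Fewer libraries enter that fit, and the cause was not tested further. Endothelial calls then numbered 17 against 26 (22.4 against 42.1% of all genes): 10 were lost and *Peg3* was added. Leaving out each brain gave 24 to 26 neural calls, 22 to 25 mural, 16 to 22 endothelial and 25 to 28 microglia calls. Of all genes, 53.1 to 54.6, 29.2 to 34.2, 30 to 32.7 and 34.4 to 35.9% were then called, in the same order. Leaving out each plate gave 11 to 23 calls in the neural and 12 to 21 in the mural gate. It gave 7 to 19 in the endothelial and 16 to 24 in the microglia gate. Of all genes, 23.2 to 44.3, 11.2 to 25, 10.9 to 28.3 and 26.2 to 47.2% were called in these gates. Neuron-like cells had 3 to 12 wild-type and 4 to 14 knockout calls (1.83 to 18.5 and 4.41 to 21.3% of all genes). The knockout, its difference between states and mural-like cells had 0. DESeq2 made 10 calls in the endothelial gate, where edgeR made 16 (11.5 and 23.3% of all genes). An edgeR test of the recovered bulk reads called 25, 22, 25 and 25 members in neural, mural, endothelial cells and microglia. Of all genes it called 59.2, 34, 31.6 and 38.1%. Leaving out mural gate cells with a fibroblast transcript, chosen after the data were seen, gave 16, 16, 15 and 21 calls. These were in the neural, mural, endothelial and microglia gates (30.1, 6.56, 23.1 and 41% of all genes). The mural calls of *Cd81*, *Peg10*, *Asb4*, *Ppp1r9a* and *Blcap* were lost.

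With a replicate block for the brain the counts were 26, 24, 27 and 29 in neural, mural, endothelial cells and microglia. Of all genes, 63.2, 40, 40.5 and 43.9% were called. The call of *Trappc9* in neural cells was the only member call lost. With a replicate block for the plate the counts were 22, 21, 18 and 19 in the neural, mural, endothelial and microglia gates (42.2, 24.2, 26.3 and 45.4% of all genes). They were 13 for wild-type and 14 for knockout neuron-like cells (21.4 and 24.8%). The *H19* call in knockout neuron-like cells, also lost when plate 4 alone was left out, was the only one lost. Plates 3 and 6 limit the depth, with as few as 41639 transcripts in the 9 neuron-like cells of plate 3.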
